A study of Danio rerio with 3 samples.

Results

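The cells described here are the 1221 T cell receptor beta-positive cells of the scale and kidney marrow libraries, 324 from scale and 897 from marrow. A barcode was taken as a cell if it held at least 500 unique molecular identifiers (UMIs, each standing for 1 captured RNA molecule), or a higher minimum in the marrow, set from its largest barcodes, at least 250 genes with a UMI and at most 10% of its UMIs on mitochondrial genes. A cell was then kept if it held at least 1 UMI of FP236356.1 (current symbol trbc1), which encodes the constant region of the T cell receptor beta chain. The filters passed 5948 cells in the whole series, 391 of them from scale and 983 from marrow, so the kept cells were 82.9% of the scale cells (exact binomial 95% interval 78.8 to 86.5%) and 91.3% of the marrow cells (89.3 to 92.9%). Because trbc1 chose the cells, its level is a description: 1029 UMIs per 1000000 UMIs (CPM) in scale and 1312 CPM in marrow. Just inside the threshold, 73 scale and 78 marrow cells held exactly 1 trbc1 UMI, and just outside it 67 scale and 86 marrow cells held 0.

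All cells came from zebrafish of the genotype lck:GFP, a transgene that expresses GFP under the lck promoter; lck encodes a kinase found in T cells and some other lymphocytes. Per the study's design text, the scale and marrow fractions were the dim ones for GFP, and sorted cells from the lymphoid and precursor gates went into droplet libraries on the 10X Genomics platform. The kidney marrow is the site of blood formation in zebrafish, and the scale sample is skin-side tissue carrying bone plates and epidermis. Age, sex and number of fish, and any pooling, are not given in the sources used here. There was 1 library a side, so the differences have no replicate check and carry no p-value, and tissue, animals, library and counting software version (Cell Ranger 4 for marrow, 6.0.0 for scale, per the file headers) cannot be told apart. Intervals are 95% intervals for counting error alone.

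As background, T cells that recirculate through blood and blood-forming organs leave tissue along a gradient of sphingosine 1-phosphate. In mice the transcription factor Klf2 drives the receptor gene S1pr1 for this exit, and T cells that settle in skin or gut hold both low while carrying the integrin pair Itgae and Itgb7, which binds E-cadherin on epithelium. In mice Runx3 is required for that settled state. Chemokine receptors set the tissue a T cell enters: in mammals CCR9 is known for gut and thymus, and CCR10 for skin.

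The kept scale cells had a median of 3371.5 UMIs and 983.5 genes per cell, against 4037 UMIs and 967 genes in marrow, and they summed to 1169197 and 4187212 UMIs. A count of 0 therefore allows up to 2.57 CPM in scale and 0.716 CPM in marrow, at 3 UMIs per library. No barcode was shared between the libraries. Beside trbc1, all 14 matched T cell markers were detected on both sides, with summed levels of 1089 CPM in scale and 1156 CPM in marrow. The parent gene lck stood at 94.1 and 107 CPM, a ratio of 0.88 (0.71 to 1.09), and gfp at 94.1 and 86.2 CPM, a ratio of 1.09 (0.87 to 1.35), so neither difference was detectable at this depth. Haemoglobin genes, left out below, stood at 1.71 CPM in scale and 419 CPM in marrow, against 37422 CPM in 518348 marrow barcodes with fewer than 100 UMIs, which hold RNA free in the droplets. Erythroid markers summed to 4.28 CPM in scale and 283 CPM in marrow, and B cell markers to 52.2 and 253 CPM. Of 19 keratinocyte markers, 10 were detected in scale and 6 in marrow, with sums of 312 and 207 CPM. The keratin genes krt5, krt91 and krt4 held 13, 11 and 3 UMIs in scale and 1, 0 and 0 in marrow, and icn stood at 201 and 136 CPM. krtt1c19e, cyt1 and cdh1 held 0 UMIs on both sides. The part of these cell types in the ratios was not tested.

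Genes with a UMI in at least 5% of the cells of either side numbered 5407. A log2 ratio of scale to marrow was taken for each after adding 3 UMIs to both sums. In scale, 636 genes (11.76%) were over 2-fold higher and 94 (1.74%) over 2-fold lower, with 4677 between. The median gene had a log2 ratio of 0.29, and counted relative to it 357 genes (6.6%) were higher and 164 (3.03%) lower, so the higher share of calls was 87.1% by UMI totals and 68.5% by the median gene. Cytosolic ribosomal protein genes held 383845 CPM of the scale UMIs and 449394 CPM of the marrow UMIs. Of the 81 tested, 0 passed 2-fold, and their median log2 ratio was -0.23. Equal added UMIs weigh more in the smaller scale total. With UMIs added in proportion to the totals, 534 genes were higher and 129 lower. Genes seen in 5% of the cells on both sides gave 317 higher and 25 lower calls of 4283. Genes that passed through scale alone gave 319 higher of 437, and through marrow alone 69 lower of 687, which the filter itself favours. The shares given for lists below include such genes.

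**Figure D1:**
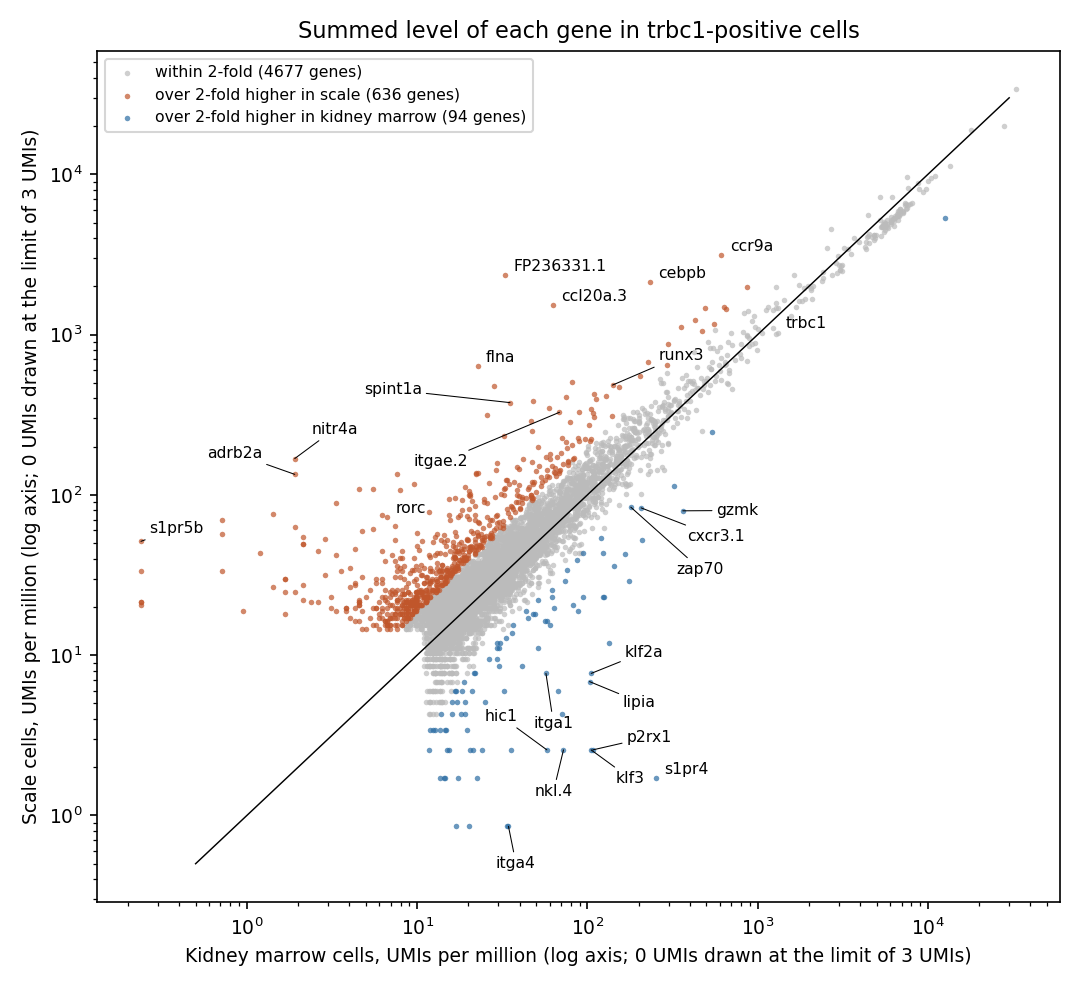
Summed level of each of the 5407 tested genes in the 324 scale cells (vertical log axis, CPM) against the 897 marrow cells (horizontal log axis), with a line of equal levels. The 636 orange points are over 2-fold higher in scale and the 94 blue points over 2-fold lower; a gene with 0 UMIs on a side is drawn at the limit that 3 UMIs give.

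The marrow side was led by s1pr4, p2rx1 and klf3, all on the list of egress, homing and recirculation genes, as was klf2a. The sphingosine 1-phosphate receptor gene s1pr4 held 1055 UMIs in marrow (252 CPM) and 2 in scale (1.71 CPM), a marrow to scale ratio of 147 (40.7 to 1218). The ATP-gated channel gene p2rx1 held 451 UMIs in marrow and 0 in scale, at least 42.0-fold lower in scale, and the transcription factor gene klf3 held 440 and 0, at least 41.0-fold lower. The transcription factor gene klf2a stood at 105 CPM in marrow and 7.70 CPM in scale, 13.7-fold lower in scale (7.14 to 30.1). s1pr1 held 0 UMIs on both sides. Of 19 tested genes on the list of egress, homing and recirculation, these 4 were over 2-fold lower in scale (21.1%, beside 1.74% of all genes) and 1 higher (5.26%, beside 11.76%). All 4 passed the 5% filter through marrow alone, as did 687 genes in all, of which 69 were lower. The list was chosen with earlier results of these data known, and its shares are a description. Its median log2 ratio was 0.01, beside 0.29 for all genes, and most of the list was within 2-fold: il7r stood at 194 CPM in scale and 101 CPM in marrow, ccr7 at 72.7 and 114 CPM, and foxo1a at 99.2 and 68.3 CPM. The 1 higher gene was another sphingosine 1-phosphate receptor, s1pr5b, with 60 UMIs in scale and 1 in marrow, 51.3 against 0.24 CPM.

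Across cells, 61.6% of the marrow cells held a UMI of at least 1 of s1pr4, klf2a, klf3 and p2rx1, against 1.54% of the scale cells (5 of 324). After each cell was thinned to 1000 UMIs, which left out 16 scale cells, such a UMI was found in 37.1% of the marrow cells (34 to 40.4%, n = 897 cells) and in 0.649% of those from scale (0.0787 to 2.33%, n = 308 cells). Free RNA carried these genes in the marrow as well, at 197 CPM for s1pr4, 104 CPM for p2rx1, 118 CPM for klf3 and 105 CPM for klf2a. In 22 trbc1-negative marrow cells with at least 5% of their UMIs on erythroid or neutrophil genes, which had a median of 7305 UMIs, p2rx1 and klf2a were found in 0 cells, which at 3 counts allows a share of cells with a UMI of up to 13.6% (exact upper bound 15.4%). In those cells klf3 was found in 2 (9.09%, 1.12 to 29.2%) and s1pr4 in 6 (27.3%, 10.7 to 50.2%). In the 897 marrow cells, at a median of 4037 UMIs, the shares were 26.6% for p2rx1, 27.0% for klf2a, 21.3% for klf3 and 41.0% for s1pr4. The intervals for s1pr4 and klf3 in the other cell types thus reach above their shares in the T cells. Within the marrow, 45 of the 50 cells with a UMI of flna (90%) also held at least 1 of the 4 genes, as did 60.0% of those without flna. In scale 0 of 224 cells with flna did, and only 5 of all 324 held any. These shares were not matched for depth.

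The filamin gene flna, whose product crosslinks actin and binds integrin tails, stood at 636 CPM in scale and 22.7 CPM in marrow, 28.0-fold higher in scale (22.6 to 35). Its UMIs were spread over the scale cells: 69.1% held one, against 5.57% in marrow, and 48.4% against 2.23% after thinning. The marrow free RNA stood at 54.6 CPM for flna, above the marrow cells. Of the 43 tested genes on the list of actin cytoskeleton and motility, 2 were over 2-fold higher in scale (4.65%, beside 11.76% of all genes) and 0 lower. Beside flna this was the actin-capping gene capgb, at 644 and 293 CPM. The median of that list was 0.16, beside 0.29 for all genes. Abundant members were close on both sides, with actb2 at 7223 and 6112 CPM, coro1a at 988 and 867 CPM and pfn1 at 4126 and 4450 CPM.

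Integrin and adhesion genes divided between the sides, with 4 of 19 tested over 2-fold higher in scale (21.1%, beside 11.76% of all genes) and 3 lower (15.8%, beside 1.74%), and a median of 0.32. The 3 lower ones passed the 5% filter through marrow alone, which favours such calls. Among the higher ones, itgb7 passed it through scale alone. Both chains of the E-cadherin-binding integrin were on the scale side. itgae.2 stood at 328 CPM in scale and 68.5 CPM in marrow, 4.78-fold higher (4.09 to 5.59), and itgb7 at 35.07 and 7.88 CPM, 4.45-fold higher (2.74 to 7.26). The surface protein gene cd99 stood at 287 and 46.8 CPM, and spint1a, which encodes a Kunitz-type inhibitor of serine proteases, at 376 and 35.11 CPM, 10.7-fold higher in scale (8.87 to 13). On the marrow side, the alpha 4 integrin gene itga4, whose product in mammals pairs with beta 1 or beta 7, held 144 UMIs against 1, a marrow to scale ratio of 40.2 (7.10 to 1599). The alpha 1 integrin gene itga1, a collagen receptor chain, stood at 57.1 CPM in marrow and 7.70 CPM in scale, and the integrin activator gene fermt3b at 22.4 and 1.71 CPM. The beta 2 integrin gene itgb2 was within 2-fold, at 66.7 CPM in scale and 70.7 CPM in marrow. Of the chains of alpha integrins past 2-fold, itgae.2 was thus on the scale side and itga4 and itga1 on the marrow side.

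Of 9 tested chemokine and chemoattractant receptor genes, 3 were over 2-fold higher in scale (33.33%, beside 11.76% of all genes) and 1 lower, with a median of -0.09. ccr9a, a homologue of the receptor for CCL25, was the most widespread: 97.2% of the scale cells and 73.8% of the marrow cells held a UMI, and the levels were 3145 and 612 CPM, 5.14-fold higher in scale (4.88 to 5.41). Its paralogue ccr9b stood at 34.2 and 10.3 CPM. ccr10 held 25 UMIs in scale, in 5.56% of the cells, and 1 in marrow. ccr9b and ccr10 passed the 5% filter through scale alone, which favours such calls. The receptor gene cxcr3.1, a homologue of the receptor of type 1 T cells in mammals, was on the marrow side, at 207 against 83.0 CPM. cxcr4b, the receptor for CXCL12, stood at 1995 CPM in scale and 2120 CPM in marrow.

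**Figure D2:**
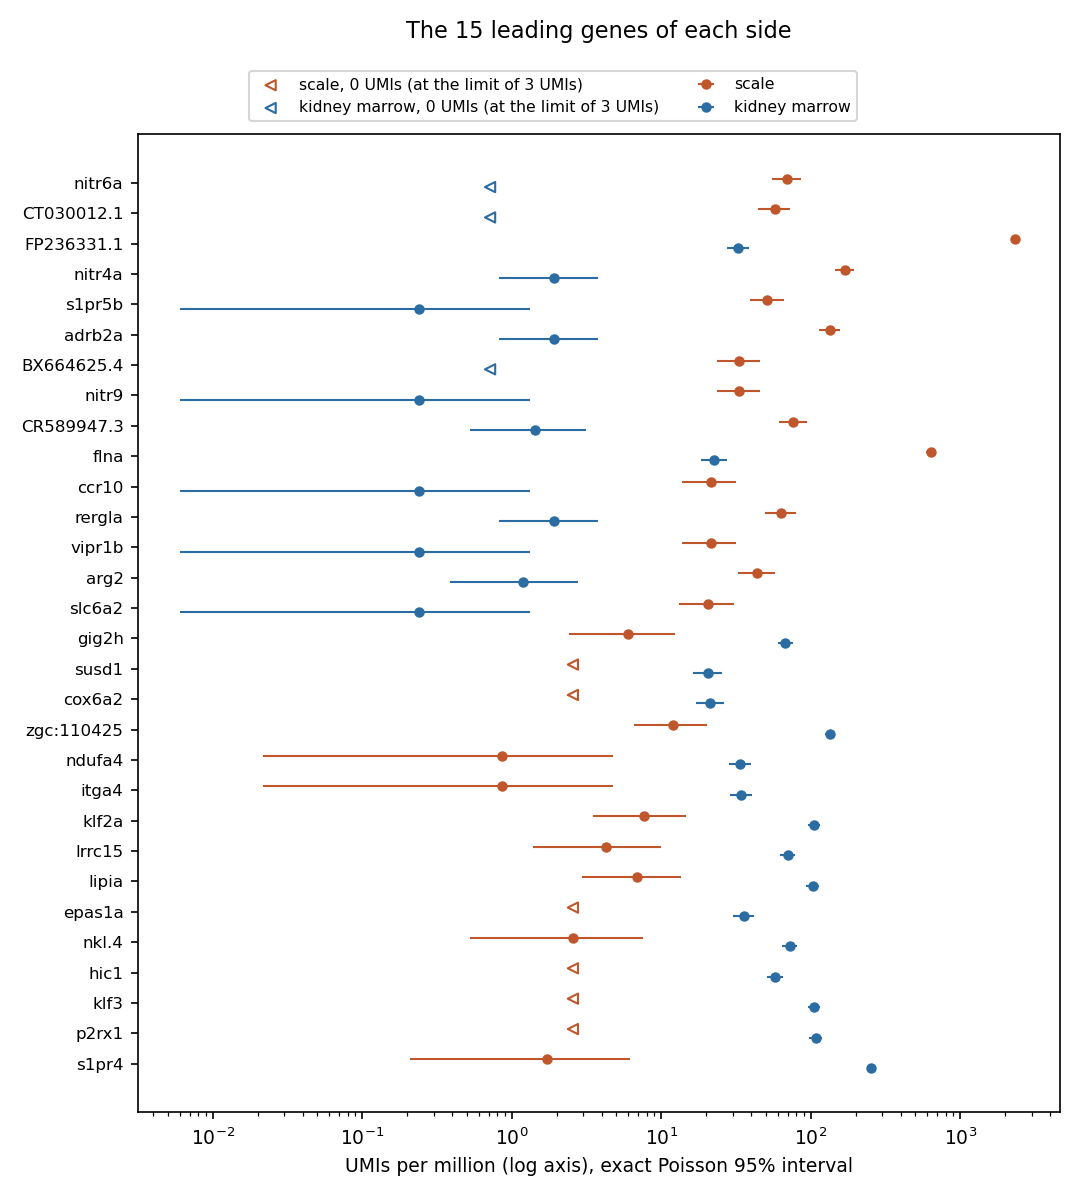
Level (horizontal log axis, CPM, with exact Poisson 95% intervals) of the 15 genes with the largest ratio in each direction, in the 324 scale cells (orange) and the 897 marrow cells (blue). Open triangles mark 0 UMIs at the limit of 3 UMIs; the 15 upper genes are higher in scale, from slc6a2 at 20.5 against 0.239 CPM to nitr6a at 69.3 CPM against 0 UMIs, and the 15 lower genes are higher in marrow, down to s1pr4 at 1.71 against 252 CPM.

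Lineage transcription factors were tested in 35 features, of which 13 were over 2-fold higher in scale (37.1%, beside 11.76% of all genes) and 2 lower, with a median log2 ratio of 0.74. cebpb, a CCAAT-binding factor best known in myeloid cells, stood at 2116 CPM in scale and 234 CPM in marrow, 9.05-fold higher (8.40 to 9.76), and 71.3% of the scale cells held a UMI. In the 22 marrow cells with erythroid or neutrophil genes cebpb stood at 1602 CPM. Of 15 neutrophil marker features, 6 were detected in the scale cells and 10 in the marrow cells described, with sums of 808 and 602 CPM, of which srgn made up 795 and 574 CPM; mpx was at 0 UMIs on both sides. Their part in the cebpb level was not tested. Among the 13 higher factors, chosen after their values were seen, were rorc, known from type 17 lymphocytes in mammals, at 72.7 against 6.69 CPM, roraa at 181 against 70.21 CPM, zbtb16a at 67.6 against 22.9 CPM and mafb, whose current symbol is MAF, at 49.6 against 2.15 CPM. rorc and mafb passed the 5% filter through scale alone, which favours such calls. runx3 stood at 484 and 140 CPM, 3.45-fold higher in scale (3.07 to 3.88), and the type 2 factor gene gata3 at 49.6 and 17.7 CPM. On the marrow side, the type 1 factor gene tbx21 stood at 14.6 CPM against 3.42 CPM in scale, and the E protein gene tcf3b at 36.8 against 15.4 CPM. After thinning before trbc1 was required, their log2 ratios were -0.046 and -0.48, in place of -1.35 and -1.06, so neither call held there. The regulatory T cell gene foxp3a stood at 47.3 CPM in marrow and 23.9 CPM in scale, within 2-fold on the log2 scale used.

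Part of the scale side came from a fraction of the cells. A UMI of the chemokine gene ccl20a.3, whose mammalian homologue binds CCR6, was found in 78 scale cells (24.1%) and 9 marrow cells (1.00%). Its levels were 1522 and 63.0 CPM, and 62.9% of the marrow UMIs lay in 1 cell. The unannotated gene FP236331.1 stood at 2338 CPM in scale and 32.7 CPM in marrow, 71.5-fold higher (60.2 to 85.5), and 95.5% of its scale UMIs lay in cells with ccl20a.3. The same cells held most of the NITR receptor transcripts, which encode immunoglobulin-type receptors of fish with activating or inhibitory forms. nitr4a stood at 168 and 1.91 CPM with 84.3% of its scale UMIs in these cells, nitr6a held 81 UMIs in scale and 0 in marrow with 81.5%, and nitr9 held 39 and 1 with 100%. By contrast, 31.9% of the scale flna UMIs, 26.8% of those of adrb2a and 16.9% of those of CR589947.3 lay in them.

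On the list of NITR, DICP and related innate receptor genes, 10 of 16 tested were over 2-fold higher in scale and 0 lower. The higher share was 62.5%, beside 11.76% of all genes, and the list median was 1.6. Among the higher genes, nitr4a, nitr6a, nitr9, a nitr6b feature and fcer1gl passed the 5% filter through scale alone, which favours such calls. Of all 437 such genes, 319 were higher. The list median relative to all genes was 1.304, and 0.492 without the ccl20a.3 cells. Besides the receptors, fcer1g, an adaptor that couples immune receptors to kinases, stood at 412 and 129 CPM, and syk, such a kinase, at 555 and 203 CPM. nitr2b was on neither side, at 44.5 and 53.5 CPM. NITR features are near-identical copies, and nitr6b and nitr1b are listed under more than 1 gene identifier, so the split of reads among copies is uncertain. Without the ccl20a.3 cells on both sides, nitr9 held 0 UMIs in scale and 1 in marrow, mafb held 2 and 5, and nitr4a held 31 and 2, a log2 ratio of 4.97 in place of 6.02. flna, at 4.59 in place of 4.77, adrb2a, at 5.63 in place of 5.70, and ccr9a, at 2.34 in place of 2.36, hardly moved. Of 110 named genes past 2-fold, 78 higher and 32 lower in scale, 109 remained to be compared without those cells, ccl20a.3 itself being left out. The level in CPM had the same direction for 108 of them, and for 95 of these the log2 ratio was still past 2-fold. The exception was nitr9.

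Of 7 tested chemokine ligand genes, 6 were over 2-fold higher in scale (85.7%, beside 11.76% of all genes) and 0 lower, with a median of 1.67. Besides ccl20a.3, these included BX005103.1, whose current symbol is ccl33.3, at 478 and 28.2 CPM, ccl38.6 at 1122 and 354 CPM, and ccl36.1 at 1968 and 865 CPM. ccl20a.3, BX005103.1 and ccl38a.5, also higher, passed the 5% filter through scale alone, which favours such calls: 319 of all 437 such genes were higher. Most chemokine genes were too sparse to test, 35 of 42 features. Of 4 tested cytokine genes, 2 were higher (50%, beside 11.76% of all genes) and 2 within 2-fold. The higher il34, a ligand of the CSF1 receptor in mammals, stood at 100 CPM in scale and 20.3 CPM in marrow. The other, tnfb, stood at 71.0 and 20.3 CPM, with 32.5% of its scale UMIs in 1 cell. In the TNF superfamily 3 of 12 genes were higher (25%, beside 11.76% of all genes) and 0 lower: the ligand gene tnfsf14 stood at 428 and 109 CPM, and the receptor gene tnfrsf9b at 28.2 and 5.73 CPM. The ligand gene faslg, at 62.4 and 40.8 CPM, was within 2-fold. Of the higher genes, il34, tnfrsf9b and tnfrsf1b also passed the 5% filter through scale alone.

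Cytokine receptor and JAK-STAT genes gave 9 higher (25%, beside 11.76% of all genes) and 0 lower of 36 tested, with a median of 0.51. The feedback inhibitors of this pathway were among them, with socs1a at 505 CPM in scale and 81.2 CPM in marrow, 6.21-fold higher (5.43 to 7.12), and cish at 136 and 22.2 CPM. il23r, a receptor chain of type 17 lymphocytes in mammals, stood at 23.1 and 3.1 CPM, il17ra1a at 52.2 and 19.6 CPM, and csf2rb at 75.3 and 17.9 CPM. il23r passed the 5% filter through scale alone, which favours such a call. il2rb, the beta chain for interleukins 2 and 15, was similar on both sides at 368 and 296 CPM, a ratio of 1.24 (1.11 to 1.39), and a UMI was found in 43.5% and 38.8% of the cells.

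Immediate early genes, which are induced within minutes by receptor signalling or by handling of cells, gave 14 higher (43.75%, beside 11.76% of all genes) and 1 lower of 32 tested, with a median of 0.55. The MAP kinase phosphatase gene dusp1 stood at 1477 CPM in scale and 637 CPM in marrow, dusp2 at 878 and 299 CPM, junba at 123 and 33.9 CPM and nr4a1 at 85.5 and 35.6 CPM. The largest ratio was that of csrnp1a, at 41.9 and 3.34 CPM. It passed the 5% filter through scale alone, which favours such a call. Its log2 ratio was 2.21 without the ccl20a.3 cells, in place of 3.45. Other members were within 2-fold, with fosab at 486 and 380 CPM, egr1 at 186 and 119 CPM and ier2a at 173 and 155 CPM, so the group did not move as a whole. The heat shock and stress list gave 5 higher (19.2%, beside 11.76% of all genes) and 0 lower of 26, with a median of 0.40. Counted relative to the median gene, 3 of 26 were higher, beside 6.6% of all genes. The median mitochondrial share per cell was 2.18% in scale and 1.59% in marrow. The part of tissue dissociation in these levels was not tested.

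Of the 15 leading genes in scale, 3 encode receptors or a transporter of neural mediators, a grouping made after their values were seen. All 3 passed the 5% filter through scale alone, which favours such calls. The share of such genes among all those tested was not counted. adrb2a, the beta 2 adrenergic receptor, stood at 134 CPM against 1.91 CPM, with a UMI in 25% of the scale cells and 0.78% of the marrow cells, 70.28-fold higher (34.8 to 166). vipr1b, a receptor of vasoactive intestinal peptide, held 25 UMIs in scale and 1 in marrow, and slc6a2, the noradrenaline transporter, 24 and 1, with 68% and 87.5% of their scale UMIs in the ccl20a.3 cells. The phosphodiesterase gene pde4ba, which breaks down cyclic AMP, stood at 386 and 48.2 CPM, 8.00-fold higher (6.76 to 9.49). It led the list of ATP, adenosine and calcium signalling, of which 7 of 22 were higher (31.8%, beside 11.76% of all genes) and 1, p2rx1, lower. The calcium channel gene orai1a stood at 112 and 45.4 CPM, with a scale to marrow ratio of 1.203 (0.73 to 1.91) among cells with 0 il2rb UMIs, and the calcium sensor gene stim1a at 216 and 89.6 CPM.

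Amino acid transport and polyamine genes gave 6 higher (50%, beside 11.76% of all genes) and 0 lower of 12, with the arginase gene arg2 at 43.6 and 1.19 CPM, the ornithine decarboxylase gene odc1 at 77.8 and 12 CPM and the glutamine transporter gene slc1a5 at 35.9 and 8.36 CPM. Among the higher genes, arg2 and slc1a5 passed the 5% filter through scale alone, which favours such calls. Glycolysis gave 3 higher of 19 (15.8%) and lipid handling 3 of 9 (33.33%), beside 11.76% of all genes, with 0 lower in both. Of 88 nuclear-encoded oxidative phosphorylation genes, 1 was higher (1.14%) and 4 lower (4.55%, beside 1.74% of all genes), with a median of -0.03. The 4 lower ones were ndufa4, cox6a2, cox8b and cox6b1. Their products are subunits of cytochrome c oxidase in mammals. ndufa4 and cox6a2 passed the 5% filter through marrow alone, which favours such calls. After thinning before trbc1 was required, the log2 ratio of ndufa4 was -0.46 in place of -3.33 and that of cox6b1 0.15 in place of -1.24, so neither call held there. cox8b stood at 59.9 CPM in marrow and 15.4 CPM in scale, and cox6a2 held 89 UMIs in marrow and 0 in scale. The cox6a2 level was 26.4 CPM in marrow free RNA, above the 21.3 CPM of the marrow cells. Of 11 mitochondrial genome genes, 0 passed 2-fold.

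Cytotoxic effector genes lay in part on the marrow side, with 5 of 15 tested lower in scale (33.33%, beside 1.74% of all genes) and 1 higher (6.67%, beside 11.76%). The other 9 were within 2-fold, and the list median was 0.18, beside 0.29 for all genes. Of the lower genes, gzma, prf1.9 and nkl.4 passed the 5% filter through marrow alone, which favours such calls. The granzyme genes gzmk and gzma stood at 363 and 87.6 CPM in marrow and 79.5 and 18.8 CPM in scale, 4.57-fold (3.70 to 5.69) and 4.66-fold (3.03 to 7.53) lower in scale. The perforin gene prf1.9 stood at 94.8 and 23.1 CPM, with 51.9% of the scale UMIs in 1 cell. The NK-lysin gene nkl.1, which encodes an antimicrobial membrane-lysing peptide, stood at 542 and 248 CPM, and nkl.4 held 303 and 3 UMIs. In marrow free RNA gzmk stood at 283 CPM and nkl.4 at 119 CPM, the latter above the 72.4 CPM of the marrow cells, and 258 further nkl.4 UMIs lay in the 86 trbc1-negative marrow cells. ctsc, the protease that activates granzymes, was higher in scale at 40.2 and 16.7 CPM, and the granule proteoglycan gene srgn was within 2-fold at 795 and 574 CPM. The granzyme gene gzm3.3 stood at 41.1 and 34.9 CPM, so the granzyme genes did not all lie on the marrow side.

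The T cell receptor and proximal signalling list of 29 tested genes had a median of -0.01. On it 2 were higher (6.90%, beside 11.76% of all genes) and 3 lower (10.3%, beside 1.74%). The adaptor gene sla1 stood at 38.49 CPM in scale and 6.45 CPM in marrow, and lcp2b, a copy of the SLP-76 adaptor gene, at 84.7 and 21.97 CPM. Of these, sla1 passed the 5% filter through scale alone, which favours such a call. Lower in scale were the receptor kinase gene zap70, at 83.8 against 180 CPM, the co-receptor gene cd4-1, at 53.9 against 119 CPM, and the SAP adaptor gene sh2d1ab, at 113 against 323 CPM. Of the co-receptor genes of cytotoxic T cells, cd8a was at 17.96 CPM in scale and 24.8 CPM in marrow and cd8b at 6.84 CPM in scale and 18.6 CPM in marrow. In marrow free RNA zap70 stood at 171 CPM and cd4-1 at 85.4 CPM. The zap70 fold lay close to the threshold at 2.15 (1.74 to 2.68), and for cd4-1 it was 2.22 (1.703 to 2.93).

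Further genes led the marrow side outside these groups. hic1, a zinc finger repressor, held 242 UMIs in marrow and 0 in scale. At the limit of 3 UMIs it was 22.5-fold lower in scale (lower end of the exact interval 18.18). epas1a, which encodes the oxygen-regulated factor HIF-2 alpha, held 150 and 0, 13.96-fold lower at that limit (lower end 11.22). The lipase-family gene lipia stood at 103 and 6.84 CPM, and lrrc15, a leucine-rich repeat protein gene, at 70.5 and 4.28 CPM. zgc:110425 stood at 134 and 11.97 CPM in 8.25% of the marrow cells, and 359 further UMIs of it lay in the trbc1-negative marrow cells. gig2h, of a fish gene family known for induction by virus and interferon, stood at 67.6 and 5.99 CPM. In marrow free RNA lipia stood at 108 CPM, lrrc15 at 66.4 CPM and gig2h at 76.1 CPM, close to or above the marrow cells. There zgc:110425 stood at 85.6 CPM, and hic1 and epas1a at 18.2 and 13.1 CPM, below 57.8 and 35.8 CPM in the marrow cells. Of 11 gig2 features, a family chosen after its values were seen, 6 were tested and 5 were lower in scale, with gig2i at 123 and 23.1 CPM. Over all genes 1.74% were lower. Apart from gig2i, the lower gig2 genes passed the 5% filter through marrow alone, which favours such calls. On the list of interferon-stimulated genes 2 of 24 were higher (8.33%, beside 11.76% of all genes) and 0 lower, with isg15 at 22.7 CPM in marrow and 15.4 CPM in scale. CR318588.1, which carries no functional name in the files, had the highest level among genes lower in scale, at 12656 and 5316 CPM.

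**Figure D3:**
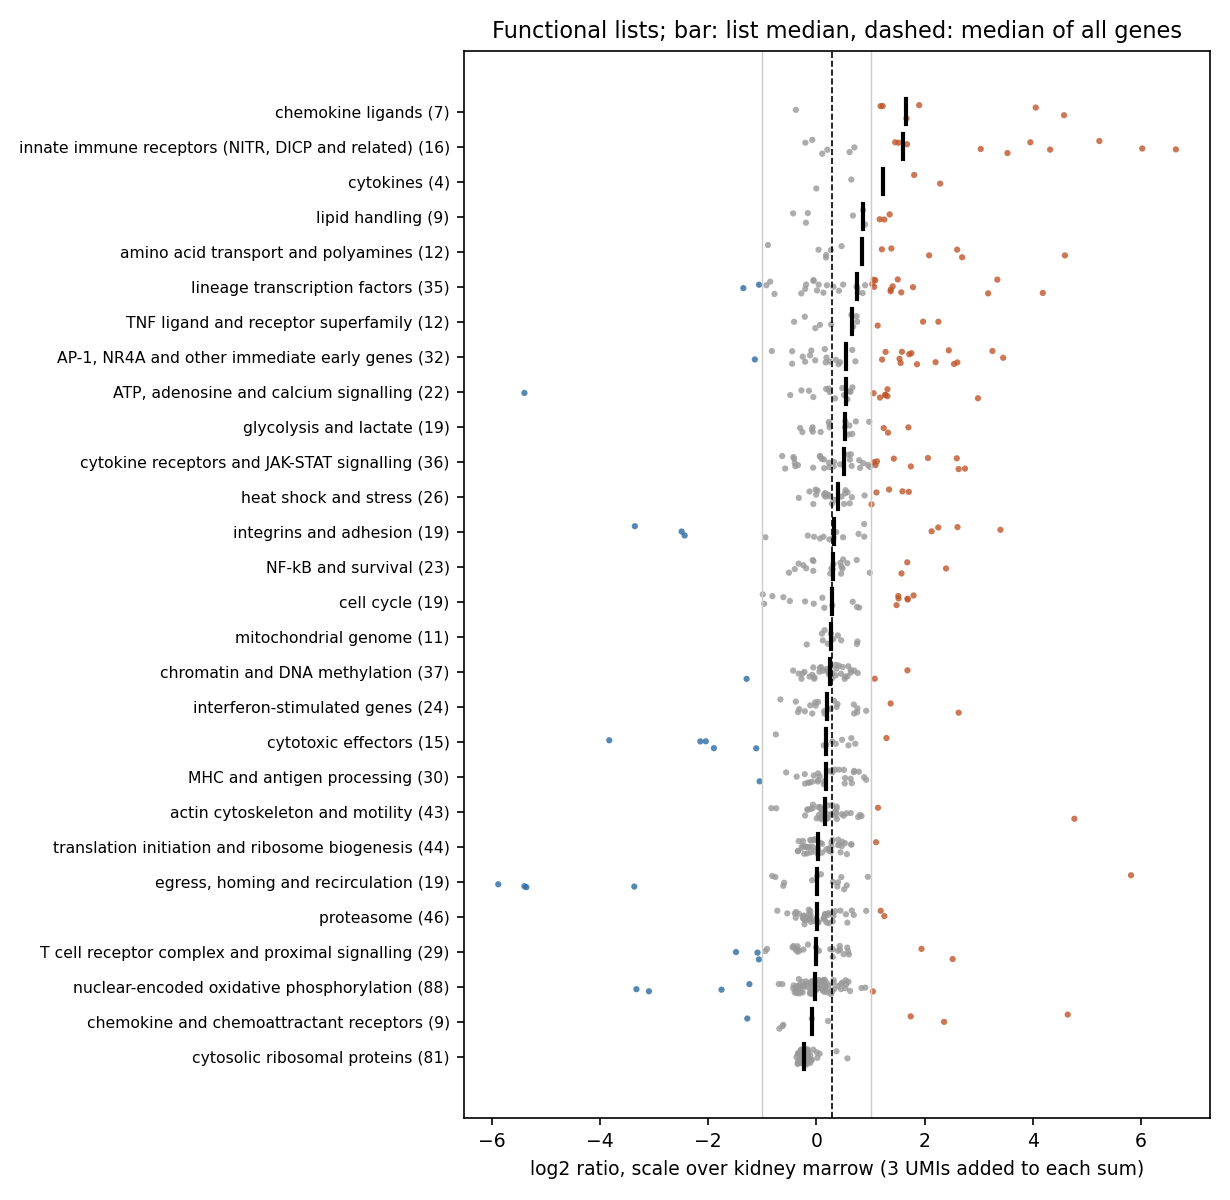
Log2 ratio of scale over marrow (horizontal axis, 3 UMIs added to each sum) of every tested gene of 28 functional lists, with the number tested in brackets. Orange points are over 2-fold higher in scale, blue points over 2-fold lower, black bars are list medians and the dashed line is the median of all genes at 0.29; chemokine ligands have the highest median at 1.67 and ribosomal proteins the lowest at -0.23.

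Among the remaining lists, the medians relative to all genes were -0.28 for the proteasome and -0.27 for translation and ribosome biogenesis. For MHC, chromatin, NF-kB and cell cycle they were within 0.2. MHC and antigen processing gave 0 higher and 1 lower of 30, mhc2dab, at 75.5 CPM in marrow and 34.2 CPM in scale, while b2m, the MHC class I light chain, stood at 2362 CPM in scale and 1645 CPM in marrow. The proteasome gave 2 higher (4.35%, beside 11.76% of all genes) and 0 lower of 46, and translation and ribosome biogenesis 1 (2.27%) and 0 of 44. Chromatin and DNA methylation gave 2 (5.41%) and 1 of 37. NF-kB and survival gave 3 (13.04%) and 0 of 23, among them bcl2a at 70.13 and 21.97 CPM. The cell cycle list gave 6 higher (31.6%, beside 11.76% of all genes) and 0 lower of 19, mostly replication licensing genes such as mcm2, at 52.2 and 15.05 CPM. pcna, at 72.7 CPM in scale and 105 CPM in marrow, and hmgb2b, at 101 and 205 CPM, were within 2-fold, so the cycle genes did not move together. Counted relative to the median gene, 6.6% of all genes were higher and 3.03% lower. On that scale lineage transcription factors gave 9 higher and 5 lower of 35, and immediate early genes 12 and 2 of 32. Innate receptors gave 10 and 0 of 16 and cytokine receptors 6 and 0 of 36. Exit and recirculation gave 1 higher and 6 lower of 19, cytotoxic effectors 1 and 6 of 15, and cell cycle 6 and 3 of 19. ATP and calcium signalling gave 3 and 1 of 22, lipid handling 1 and 0 of 9, and the actin list 1 and 2 of 43.

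Genes past 2-fold that many cells held were also counted per cell. There were 26 genes over 2-fold higher in scale and present in at least 50% of its cells, among them flna, cebpb, ccr9a, spint1a, itgae.2, runx3 and socs1a. At 1000 UMIs per cell, scale cells held a median of 10 of these genes (quartiles 7 and 14, range 2 to 20) and marrow cells a median of 4 (3 and 6, range 0 to 14). For 17 genes over 2-fold lower in scale and present in at least 25% of the marrow cells, the medians were 1 (range 0 to 4) and 3 (range 0 to 11). These genes were chosen from the same cells, so the shift of the medians is a description, and the ranges overlap on both counts.

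**Figure D4:**
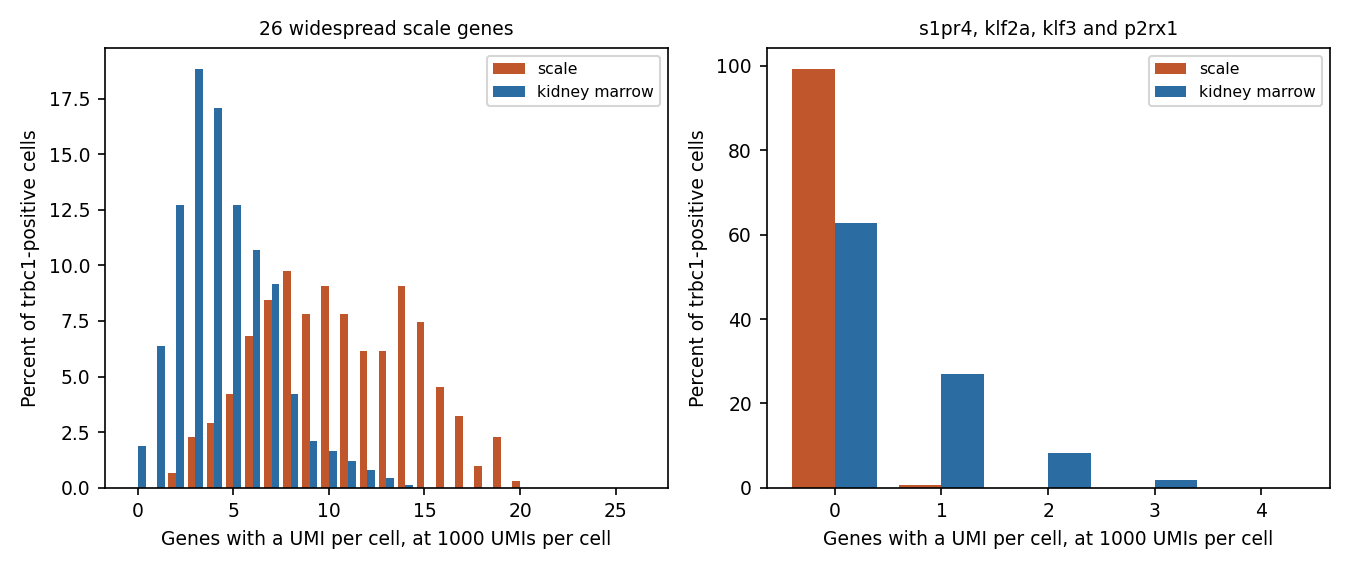
Share of cells (vertical axis, percent of 308 scale and 897 marrow cells) by the number of genes with a UMI after thinning to 1000 UMIs per cell. The left panel counts 26 genes widespread in scale, with medians of 10 in scale and 4 in marrow, and the right panel counts s1pr4, klf2a, klf3 and p2rx1, of which at least 1 was found in 0.649% of scale and 37.1% of marrow cells.

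Cells with an il2rb UMI and cells without one were then set side by side, 141 and 183 in scale and 348 and 549 in marrow. Of the 110 named genes past 2-fold, 103 had the same direction of the level in CPM in both strata as over all cells. The exceptions were csf2rb, ccl38a.5, bop1, mcm2 and mcm3, lower in scale among cells with 0 il2rb UMIs, and ddit3 and arid5b, lower among cells with il2rb. csf2rb had a log2 ratio of 2.99 among cells with il2rb and -0.92 among those without. Among cells without il2rb the ratios of the scale side were often larger, 5.89 against 3.77 for flna, 4.12 against 2.39 for cebpb and 3.03 against 1.18 for itgae.2. The replication gene mcm2 had a scale to marrow ratio of 12.7 with il2rb and 0.93 without, and the polyamine gene odc1 one of 21.4 and 2.43. nkl.4 held 0 UMIs in scale and 265 in marrow among il2rb cells and 3 and 38 among the others. s1pr4, at -4.56 and -5.50, and klf3, at -4.11 and -4.51, were on the marrow side in both, and gzmk was alike at -2.02 and -2.15. The il2rb cells were deeper, with medians of 3987 and 4538 UMIs against 3162 and 3855, and a cell with 0 il2rb UMIs at these depths may still carry the transcript. The differences between strata were not tested.

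**Figure D5:**
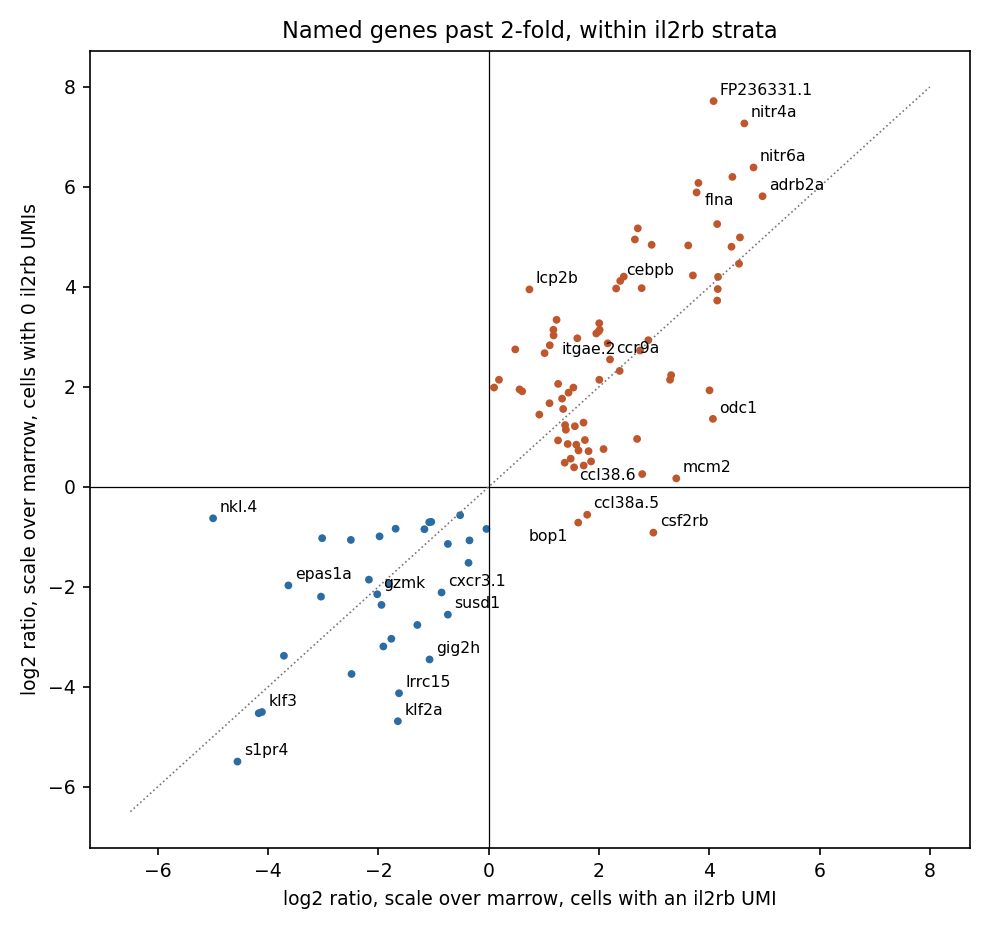
Log2 ratio of scale over marrow in cells with an il2rb UMI (horizontal axis) and in cells with 0 il2rb UMIs (vertical axis) for the 110 named genes past 2-fold, orange where higher and blue where lower in scale over all cells, with a dotted line of equal ratios. The ratios have 3 UMIs added to each sum; 3 genes lie below the horizontal line on the right, csf2rb, ccl38a.5 and bop1, and the levels in CPM of 4 further genes near a line, mcm2, mcm3, ddit3 and arid5b, also change direction.

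The 67 scale and 86 marrow cells with 0 trbc1 UMIs, which the rule left out, were compared in the same way. Their medians were 1876 and 5039 UMIs, and the marrow ones carried haemoglobin at 104133 CPM and neutrophil markers at 34169 CPM, so they are not like cells. ccr9a had a log2 ratio of 4.48 there, flna 3.45, spint1a 4.90, cebpb 2.04 and nitr4a 5.91, and s1pr4 had -2.62. Of the 110 named genes past 2-fold, the level in CPM had the same direction there for 88 and the opposite one for 22, of which 7 were marrow-side genes of the cells described: klf3, klf2a, sh2d1ab, cd4-1, zap70, gzma and cxcr3.1. gzma held 9 UMIs in scale and 6 in marrow, a log2 ratio of 2.55, and cxcr3.1 held 21 and 32, a log2 ratio of 1.59. klf2a had a log2 ratio of 2.99, and its 55 scale UMIs all lay in 1 cell of 31938 UMIs with at least 5% of them on keratinocyte markers. Whether doublets contribute was not controlled in the marrow: Scrublet called 17 of the 391 scale cells, 13 of them among those described, and 0 of the 983 marrow cells. Without its calls 672 genes were higher and 92 lower in scale.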

How the data were processed

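Single-cell RNA counts of 2 libraries, scale and kidney marrow, were compared. The authors deposited matrices of UMI counts that were not normalized. Per the file headers, the scale matrix came from cellranger 6.0.0 and the marrow matrix from Cell Ranger 4, and per the submitters' processing notes the build was GRCz11 and Seurat 4.3.0 was also used. The scale matrix holds 454 barcodes, all with at least 500 UMIs, and the marrow matrix 672506 barcodes without a minimum. Counts were summed over cells and given per 1000000 UMIs (CPM). Intervals are exact (Poisson for levels, Clopper-Pearson for shares, conditional binomial for ratios) and cover counting error only. A gene with 0 UMIs was given the limit of 3 UMIs. A fold against it is taken at that limit and leaves out counting error on the other side. The lower end of the exact interval is therefore given beside it. Genes were called past 2-fold after adding 3 UMIs to both sums. No doublets were removed in the values reported, and haemoglobin genes were left out of the genes but not of the totals. Thinning drew 1000 UMIs per cell without replacement. Scrublet was run in scanpy 1.11.5 at an expected rate of 0.05; scipy 1.17.1 and numpy 2.4.6 under Python 3.11.15 gave the rest, and the ratio was tested on simulated data.

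Features were named as in the files, and 29177 of 31900 Ensembl features matched a table of current symbols. Of 1182 names on the lists, 1088 matched a feature. A barcode was taken as a cell at 500 UMIs or more in scale and 1395 or more in marrow. Named genes were the top 15 by ratio on each side, leaving out features with over 50% of the higher side's UMIs in 1 cell, up to 4 past 2-fold per list and direction, and 7 panel genes. Further list members and the gig2 family were named after their values were seen. Members and lists were chosen with earlier results of these data known. The alternatives in the closing section changed doublets, depth, filters, weights, scaling and the added count. Proportional added UMIs, leaving out ccl20a.3 cells, the shares in 22 marrow cells of other types, and the genes present in many cells were chosen after seeing the data.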

Additional observations from a re-analysis of the deposited data

Results flagged for a closer look

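Barcodes outside the cells described carried the same genes at levels over the limit set by 0 UMIs. In 126 marrow barcodes with a trbc1 UMI and between 500 UMIs and the marrow minimum, s1pr4 stood at 378 CPM (36 UMIs, 265 to 524), ccr9a at 1850 CPM (1587 to 2145), cebpb at 231 CPM (145 to 350) and flna at 52.6 CPM (5 UMIs, 17.07 to 123), where 0 UMIs allow up to 31.5 CPM. In the marrow cells described, these genes stood at 252, 612, 234 and 22.7 CPM.

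In 28 scale barcodes with a trbc1 UMI but over the mitochondrial limit, which had a median of 634 UMIs, ccr9a stood at 10522 CPM (9160 to 12030), flna at 1377 CPM (915 to 1990) and cebpb at 983 CPM (601 to 1519), where 0 UMIs allow up to 147.5 CPM. In the scale cells described they stood at 3145, 636 and 2116 CPM. s1pr4 held 2 UMIs there, under that limit, at 98.3 CPM (11.9 to 355). In the scale cells described it stood at 1.71 CPM (0.207 to 6.18).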

How the results depend on the processing

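No paired analysis was possible because each side is 1 library. The main counts were 636 genes higher and 94 lower in scale. Thinning each cell to 1000 UMIs before requiring trbc1 left 203 scale and 639 marrow cells and gave 429 higher and 42 lower. Scaling by the median ratio gave 357 and 164, requiring a UMI in 10% of cells 309 and 51, and no filter on low genes 6222 and 249. The other 12 settings gave between 464 and 774 higher and between 92 and 129 lower. Without the ccl20a.3 cells the counts were 647 and 92. Of the 110 named genes past 2-fold, 1 reversed: the log2 ratio of cox6b1 was -1.24, but 0.15 after thinning and 0.0341 with each cell given the same weight. Up to 15 named genes came back within 2-fold, in the thinned cells. List medians relative to all genes changed sign under at least 1 setting for 16 of 28 lists, 10 of which had a median within 0.2 of that of all genes. The other 6 were glycolysis, amino acid transport and the proteasome after thinning, the proteasome also with equal cell weights, glycolysis also with the 10% filter, the TNF superfamily without the ccl20a.3 cells, and with no filter the chemokine receptors, the TNF superfamily, glycolysis and ATP signalling. The causes were not tested. Depth limits calls of sparse genes, since 3 UMIs correspond to 2.57 CPM in scale.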
